A study of Mus musculus with 6 samples.

Results

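The members described here are 9 genes of AP-1, the family of dimeric transcription factors built from FOS, JUN, ATF and MAF proteins: Fos, Fosb, Fosl1, Fosl2, Jun, Junb, Jund, Atf3 and Maff. They were taken by name, with no threshold on their values but with earlier results of these data known, and all 9 were among the 12235 genes of the deposited table. RNA was measured in podoplanin-positive (PDPN+) cancer-associated fibroblasts from orthotopic 4T1 tumours of BALB/c mice. 4T1 is a mammary carcinoma line of the same strain, and the labels give it once with a GFP tag and once with a luciferase tag. Both groups come from females aged 8 weeks that received 100000 cells in a mammary fat pad, and both share the gate on cells without Ter119, CD45, EpCAM or propidium iodide staining. The groups differ in the Ly6C gate alone: 3 libraries were Ly6C+ and 3 were Ly6C-. No label says whether the libraries of a group came from separate mice, so p-values measure the spread between these libraries, which may be technical.

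AP-1 factors bind DNA through a basic leucine zipper. FOS proteins need a JUN partner, whereas JUN proteins can also pair with each other. Fos, Fosb, Jun, Junb and Atf3 are immediate early genes, switched on within minutes to hours of growth factors, stress or wounding, and enzymatic tissue dissociation is a known trigger. Fosl1 and Fosl2 encode FRA-1 and FRA-2, FOS proteins without the transactivation domain of c-FOS, which are induced later and persist longer and which have been tied to matrix protease genes and to fibrosis. The tumours here were minced and digested with collagenase A at 3 mg per ml and DNase at 70 units per ml before sorting, and no label gives the time between digestion and lysis for either gate.

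Several promoters of these genes are known to carry AP-1 or cyclic AMP response elements of their own. The bases just before an annotated start are shown for 4 members that rose, chosen for the motif matches they hold, and for Fosl2, which did not pass the test and holds none. They come from RefSeq (GRCm38.p6, which is mm10), whose promoter table matched 8 of the 9 members, all but Fosl1. Capitals mark TGACGTCA, TGACTCA, TGACATCA, TTACCTCA or the core TGACG, on either strand, where TGACG also lies inside TGACGTCA.
Fos, chr12:85473710-85473889, plus strand: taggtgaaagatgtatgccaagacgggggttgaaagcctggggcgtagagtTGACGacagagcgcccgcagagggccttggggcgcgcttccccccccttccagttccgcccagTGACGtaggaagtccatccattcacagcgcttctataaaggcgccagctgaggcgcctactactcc
Jun, chr4:95052223-95052402, minus strand: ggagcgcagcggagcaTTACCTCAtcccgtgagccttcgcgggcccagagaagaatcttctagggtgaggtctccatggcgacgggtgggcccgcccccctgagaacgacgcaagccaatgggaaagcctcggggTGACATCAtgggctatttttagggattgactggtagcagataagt
Atf3, chr1:191183334-191183513, minus strand: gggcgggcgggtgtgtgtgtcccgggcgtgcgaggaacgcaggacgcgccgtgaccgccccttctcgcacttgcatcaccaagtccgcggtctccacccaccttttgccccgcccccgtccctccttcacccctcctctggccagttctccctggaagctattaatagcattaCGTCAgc
Maff, chr15:79347340-79347519, plus strand: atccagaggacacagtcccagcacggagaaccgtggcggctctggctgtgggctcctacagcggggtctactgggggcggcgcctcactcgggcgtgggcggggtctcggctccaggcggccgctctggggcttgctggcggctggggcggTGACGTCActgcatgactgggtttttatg
Fosl2, chr5:32136292-32136471, plus strand: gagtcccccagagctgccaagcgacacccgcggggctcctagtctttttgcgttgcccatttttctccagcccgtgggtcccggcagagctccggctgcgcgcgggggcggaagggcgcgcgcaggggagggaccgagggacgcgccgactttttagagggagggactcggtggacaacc
Jun held TGACATCA 45 bases and TTACCTCA 164 bases before its start. TGACATCA occurred in 2.93% and TTACCTCA in 0.728% of all 32851 promoter windows of 250 bases. These shares are background and no test of the Jun matches, as the motifs may come from elements already known in the Jun promoter. The second of the 3 annotated Maff starts held the full element TGACGTCA 29 bases upstream, a match found in 1.55% of windows. Fos held the core TGACG 66 and 129 bases before its start, and Atf3 held it on the other strand 7 bases before its start, against 17.8% of windows with the core. Fosb and Junb, not printed, held the core 60 and 106 bases before their starts, and the third Maff start held TGACATCA 45 bases upstream. The window of Jund, which rose, held none of the motifs, and neither did that of the first Maff start. The Jund window lies before an annotated start at 70697739, however, upstream of the gene start of 70698949 given below. When the first bases after each start were looked for in transcripts, those of Jund and Junb were not found. Those of the other windows were found. The Jund and Junb windows therefore cannot show whether the matches set the members that rose apart from Fosl2. Neither can the printed windows, as those of the 4 members that rose were chosen for their matches. TGACTCA, found in 4.46% of windows, was in none of the 10 windows of the members. These matches describe the letters and show no binding.

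Of the 9 members, 7 rose in Ly6C+ cells and none fell, at a Benjamini-Hochberg adjusted p under 0.05 in limma, a linear model fitted to log2(value + 1) of 9646 genes. Across all genes tested, 9.41% were called higher and 7.66% lower (908 and 739 genes). After division by library totals this balance turned, to 7.5% higher and 12.5% lower (723 and 1204 genes). The 7 were Fos, Fosb, Jun, Junb, Jund, Atf3 and Maff, and Fosl1 and Fosl2 did not pass. The median log2 fold change of the 9 was 0.85, where that of all genes tested was 0.00. All 9 had positive fold changes in each of 19 alternative settings, but several of these alter the test alone and leave the fold changes as they were. The 7 calls were reduced to 4 after quantile normalization (Fosb, Jund, Atf3 and Maff) and to 4 without Ly6C- replicate 2 (Fos, Fosb, Jund and Atf3). In these settings 8.87% and 6.76% of all genes tested were called higher. The 9 genes together took 1.38% of the reads in Ly6C+ replicate 1 (Wilson 95% interval 1.37 to 1.39), 1.30% in replicate 2 (1.29 to 1.32) and 1.28% in replicate 3 (1.26 to 1.29). In the Ly6C- libraries the share was 0.816% (0.802 to 0.831), 0.668% (0.656 to 0.680) and 0.738% (0.723 to 0.753). Every Ly6C+ library thus lay above every Ly6C- library, and the intervals cover counting error only.

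**Figure D1:**
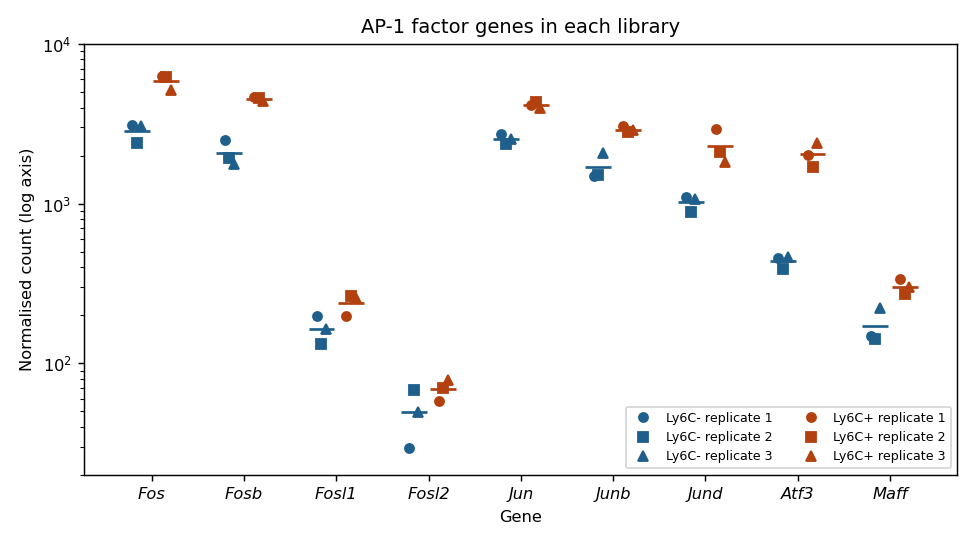
Normalised counts (log axis) of the 9 AP-1 genes in each of the 6 libraries, blue for Ly6C- and orange for Ly6C+, with marker shape for the replicate number and a line at each group mean. The groups do not overlap for 8 genes, and for Fosl2 the Ly6C- replicate 2 value of 68.1 lies inside the Ly6C+ range of 57.9 to 78.0.

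Values are the authors' normalised counts, in replicate order 1 to 3, and group values are mean ± SD over n = 3 libraries. The whole table held 2150531 to 2818269 reads in the Ly6C+ libraries and 1176909 to 1721480 in the Ly6C- libraries, so the Ly6C- values rest on fewer reads. The fibroblast label fitted Col1a2, at 20568 or above in each library, but other fibroblast markers differed between the groups. Dcn was higher in Ly6C+ than in Ly6C- libraries (5390 to 10233 against 1522 to 2313). So were Pdgfra (490 to 555 against 206 to 229) and Pdpn (181 to 223 against 66.9 to 143). Pdgfrb was lower (202 to 424 against 599 to 1088). Col1a1, Thy1 and Fap overlapped, with Fap at 9.84 in Ly6C- replicate 1. The highest value of Epcam was 2.95 and that of Ptprc, the CD45 gene, 4.88. Summed markers of other cells moved with the groups: 6 immune markers of 8 in the list came to 194 to 654 in Ly6C+ and 53.6 to 95.5 in Ly6C- libraries, with S100a8 at 179 in Ly6C+ replicate 1 and at most 3.01 elsewhere. Cd3e (88.7 to 165 against 10.5 to 19.7) and Lyz2 (27.0 to 264 against 1.70 to 25.6) were higher in each Ly6C+ library. Cd68 (13.4 to 22.6 against 12.8 to 18.7) and Csf1r (27.0 to 35.3 against 20.4 to 31.5) overlapped. The 5 epithelial markers came to 8.54 to 15.5 against 60.4 to 145. That sum rested on Krt19 (3.01 to 4.88 against 24.7 to 57.1) and on Krt8, which overlapped (3.05 to 10.0 against 6.56 to 81.7). Epcam, Cdh1 and Cldn7 stood at 2.95 or below in every library. The 5 markers of pericytes and smooth muscle came to 42.1 to 83.4 against 362 to 459, and 2 of 4 endothelial markers to 15.0 to 28.7 against 3.93 to 5.10. The difference in the pericyte sum came mostly from Cspg4 (25.0 to 28.6 in Ly6C+ against 324 to 400 in Ly6C- libraries). Mcam and Myh11 were also lower in each Ly6C+ library, Rgs5 overlapped, and Abcc9 was higher (15.2 to 51.0 against 5.91 to 14.5). The endothelial sum rested on Tek (13.5 to 25.6 against 0 to 2.62), while Pecam1 overlapped (1.50 to 3.05 against 1.31 to 4.25). Of the erythroid markers none is in the table. The part of these cells in the AP-1 differences was not tested, and in bulk RNA fewer cells of a type and less RNA per cell cannot be told apart.

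Among the FOS genes, the pair of classical early genes rose about as much as each other. Fos, which encodes c-FOS (chromosome 12, 85473890 to 85477273, plus strand, mm10), measured 6299, 6216 and 5169 in the Ly6C+ libraries, and 3108, 2391 and 3043 in the Ly6C- ones. The lowest Ly6C+ value was well above the highest Ly6C- value, and Ly6C- replicate 2 was the low library. The means of 5895 ± 629.7 and 2847 ± 396 differ 2.07-fold (log2 fold change 1.05, 95% interval 0.66 to 1.45; limma adjusted p = 0.00184). Fosb, whose product can replace c-FOS in dimers with JUN (chromosome 7, 19302696 to 19310051, minus strand), stood at 4688, 4597 and 4373 against 2521, 1923 and 1767. Its Ly6C+ libraries were close together, with an SD of 162 on a mean of 4553, and the Ly6C- libraries more spread, with an SD of 398 on 2070.4. The difference was 2.20-fold (log2 fold change 1.15, 95% interval 0.76 to 1.54; limma adjusted p = 0.000950). The call of Fos ended after quantile normalization (log2 fold change 0.53; adjusted p = 0.0602, the highest of the alternatives, the lowest being 9.03e-07), whereas Fosb passed in each.

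The FRA genes rested on few reads, as did Maff, which was called, and had the smallest fold changes of the 9 genes. Fosl1 (chromosome 19, 5447547 to 5455946, plus strand) stood at 198, 265 and 257 in Ly6C+ and at 197, 131 and 164 in Ly6C- libraries, on 324, 353 and 333 against 200, 154 and 125 reads. The groups did not overlap, but Ly6C+ replicate 1 and Ly6C- replicate 1 were nearly equal. The 1.46-fold difference of means (240.1 ± 37.0 against 164 ± 32.9) did not pass (log2 fold change 0.56, 95% interval 0.11 to 1.00; limma adjusted p = 0.0885). Leaving out Ly6C- replicate 1 brought it past the threshold (log2 fold change 0.70; limma adjusted p = 0.0436), and the alternatives spanned 0.0436 to 0.319. Fosl2 (chromosome 5, 32135801 to 32157842, plus strand) stood at 57.9, 69.9 and 78.0 against 29.5, 68.1 and 49.8, on 95, 93 and 101 against 30, 80 and 38 reads. Its groups overlapped through Ly6C- replicate 2. The 1.40-fold difference did not pass (log2 fold change 0.54, 95% interval -0.10 to 1.18; limma adjusted p = 0.255, and 0.111 to 0.621 in the alternatives). Its fold was 1.16 when Ly6C- replicate 1 was left out and 1.73 when Ly6C- replicate 2 was. Both intervals reach past the estimates for Jun and Junb given next.

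The JUN genes, which supply the obligate partners of FOS proteins, all rose. Jun (chromosome 4, 95049034 to 95052222, minus strand, a gene of 1 exon) stood at 4174, 4309 and 3979 in Ly6C+ and at 2727, 2346 and 2543 in Ly6C- libraries. Within each group its libraries were close, and the groups did not overlap. The difference was 1.64-fold (log2 fold change 0.71, 95% interval 0.37 to 1.06; limma adjusted p = 0.00896). Junb, which encodes a JUN protein that tempers c-JUN in many settings (chromosome 8, 84974484 to 84978718, minus strand), stood at 3042, 2806 and 2881 against 1499, 1507 and 2071. Ly6C- replicate 3 was the high library of its group and still below each Ly6C+ value. The difference was 1.72-fold (log2 fold change 0.80, 95% interval 0.41 to 1.18; limma adjusted p = 0.00897).

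The calls of both ended after quantile normalization (Jun log2 fold change 0.20, adjusted p = 0.431; Junb 0.45, adjusted p = 0.0954) and without Ly6C- replicate 2 (limma adjusted p = 0.0577 and 0.0562). Over all alternatives the adjusted p ran from 0.000524 to 0.431 for Jun and from 0.000508 to 0.0954 for Junb. Junb overlaps the peroxiredoxin gene Prdx2 on the opposite strand, and the sources used here do not say whether counting used strand. Prdx2 did not pass and had the opposite sign (404 ± 29.4 against 482 ± 56.2; limma adjusted p = 0.353).

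Jund, which encodes the JUN protein found most widely in resting cells (chromosome 8, 70698949 to 70700616, plus strand, 1 exon), stood at 2921, 2118 and 1820.4 in Ly6C+ and at 1103, 883 and 1066 in Ly6C- libraries. It varied most among the Ly6C+ libraries, with replicate 1 far above the other two, yet its groups were separate. The difference was 2.25-fold (log2 fold change 1.15, 95% interval 0.71 to 1.58; limma adjusted p = 0.00210), or 1.94-fold without Ly6C+ replicate 1, and it passed in each of the alternatives. In the annotation a gene on the opposite strand also overlaps Jund, Jun, Fosl1 (Ccdc85b) and Atf3. None of these is in the table, and without strand their reads cannot be told apart from those of the members.

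Atf3 had the largest difference of the 9 genes. It encodes a stress-induced ATF protein that pairs with JUN proteins and, as a homodimer, mostly represses (chromosome 1, 191170296 to 191218039, minus strand). It stood at 2004, 1705 and 2406 in Ly6C+ and at 457, 391 and 460.2 in Ly6C- libraries. The Ly6C- libraries were close together and each lay far below the lowest Ly6C+ library. The difference was 4.67-fold (log2 fold change 2.21, 95% interval 1.83 to 2.59; limma adjusted p = 8.73e-06), and 97.4% of the genes tested had an equal or lower log2 fold change. It was 4.25-fold to 5.06-fold with 1 library left out and passed in each of the alternatives. The 95% interval of Atf3 lay above those of the other 8 members.

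Maff encodes a small MAF protein, which has a leucine zipper but no transactivation domain (chromosome 15, 79346621 to 79359076, plus strand). It stood at 337, 271 and 299.8 in Ly6C+ and at 148, 142 and 220.3 in Ly6C- libraries, with replicate 3 again the high Ly6C- library. The difference was 1.78-fold (log2 fold change 0.85, 95% interval 0.41 to 1.29; limma adjusted p = 0.0132). Its call ended without Ly6C+ replicate 1 (adjusted p = 0.0642), without Ly6C- replicate 2 (0.0739) and with no mean-variance trend (0.0539), over a range of 0.00199 to 0.0739. The values of Maff rested on 552, 360 and 388 against 150, 167 and 168 reads, in Ly6C- libraries about as few as for Fosl1. In all, 8 of the 9 genes had every Ly6C+ library above every Ly6C- library, against 17.1% of all genes tested.

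**Figure D2:**
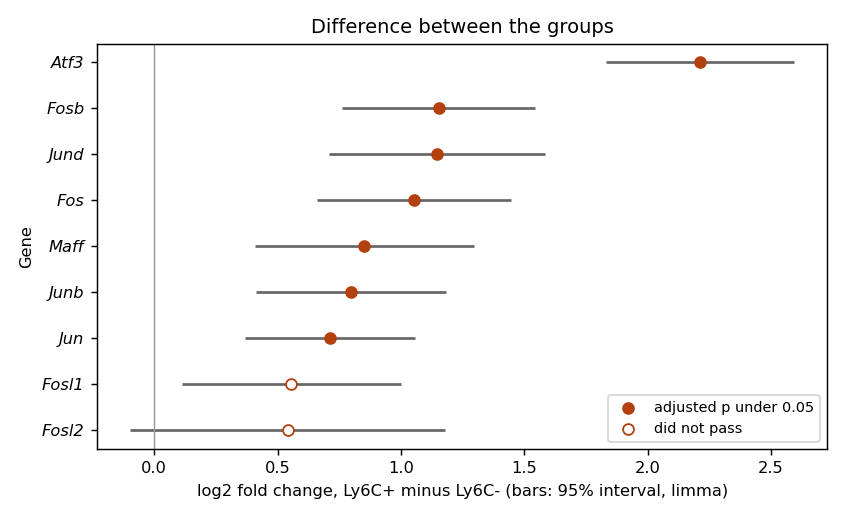
Log2 fold change of each member, Ly6C+ minus Ly6C-, with its 95% interval from limma; filled points passed at an adjusted p under 0.05. Atf3 stands apart at 2.21, the 6 other called genes lie between 0.71 and 1.15, and Fosl1 and Fosl2 lie at 0.56 and 0.54.

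The fold changes of Fosl1 and Fosl2 were set against those of the other 7 members through the log2 ratio of 2 genes within a library, taken on the value + 1, so that the size factor of that library all but cancels. Only the shift of a ratio between the groups is read here, not its level. That shift equals the difference between the log2 fold changes of the 2 genes given above. As Fosl1 and Fosl2 had the smallest fold changes of the members, each of the 14 ratios was bound to be lower in Ly6C+ cells. The log2 ratio of Fosl1 to Atf3 was -3.34, -2.68 and -3.22 in the Ly6C+ libraries, where the Ly6C- libraries had -1.21, -1.57 and -1.48, a shift of -1.66. Against Fos the Fosl1 ratio was -4.99, -4.54 and -4.32 in the Ly6C+ libraries, where the Ly6C- libraries had -3.97, -4.18 and -4.21, a shift of -0.50. The groups were separate in both.

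The ratios of Fosl1 to Fosb (shift -0.60) and to Jund (-0.59) did not overlap between the groups either, while those to Jun (-0.16), Junb (-0.24) and Maff (-0.30) did. For Fosl2 the ratio to Atf3 alone did not overlap, with -5.09, -4.59 and -4.93 in the Ly6C+ libraries against -3.91, -2.51 and -3.18. The ratios that did not overlap had an exact two-sided permutation p of 0.1, the smallest that 3 against 3 libraries allow, and 0.28 adjusted over the 14. The other ratios had p from 0.4 to 0.7. With a smallest p of 0.1, no ratio could pass whatever its values. FRA genes are not particular in this: of all genes tested, 91.4% had a ratio to Atf3 that was lower in Ly6C+ without overlap, 68.6% to Fos, 72.7% to Fosb and 69.2% to Jund. After quantile normalization the shifts of the ratios to Fos, Jun and Junb changed sign for both FRA genes.

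**Figure D3:**
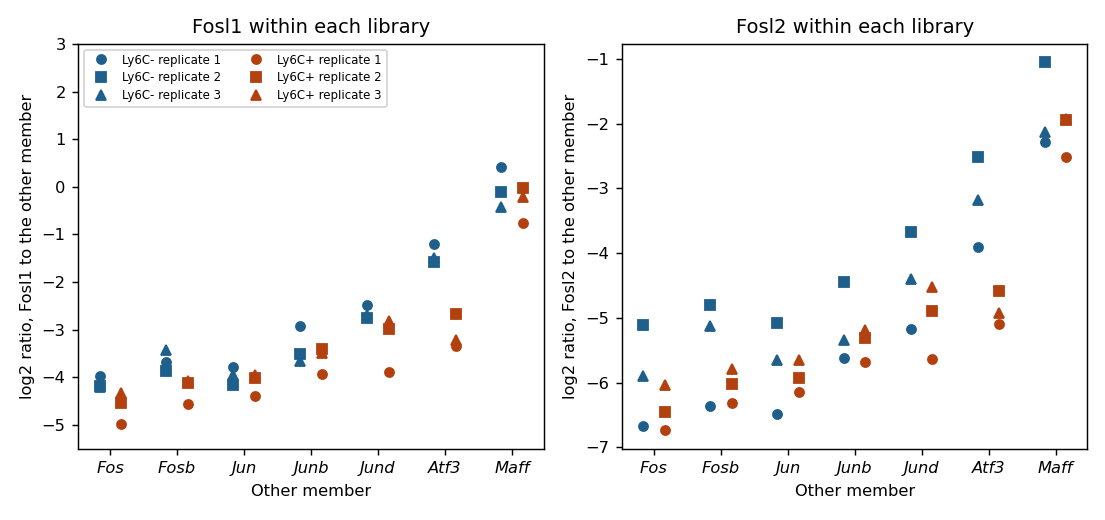
Log2 ratio of Fosl1 (left) and Fosl2 (right) to each of the other 7 members within each library, blue for Ly6C- and orange for Ly6C+. The Fosl1 ratios to Atf3 lie between -3.34 and -2.68 in Ly6C+ and between -1.57 and -1.21 in Ly6C- libraries, whereas the ratios to Jun overlap.

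The patterns of the members over the 6 libraries were compared as the root mean square difference of their log2 values, each gene centred on its own mean. Junb and Maff were the closest pair at 0.08, followed by Fos and Jund at 0.15 and Fos and Fosb at 0.18. Atf3 and Fosl2 were the least alike at 0.94. Among 6695 other genes with a mean of at least 20, those closest to Fos were Lynx1, Tns2 and Ap2a2 (0.07, 0.09 and 0.11). Closest to Atf3 was Nsg1 (0.12), closest to Fosl1 were Rnf145, Tctex1d2 and Plgrkt (0.08, 0.09 and 0.10), and closest to Fosl2 Kcnma1, Kctd20 and Slc41a1 (0.11, 0.11 and 0.13).

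Other early response genes mostly moved with the called members. Of 30 tested from a list of 32, 18 rose, 2 fell and 10 did not pass, where 9.41% of all genes tested rose and 7.66% fell. The median log2 fold change of the list was 0.76. Klf4, a zinc-finger factor, rose 5.35-fold (1888 ± 77.7 against 353 ± 38.8; limma adjusted p = 2.10e-06), and Socs3, a brake on cytokine signalling, 2.75-fold. The mRNA-decay genes Zfp36l1 and Zfp36 rose 3.56-fold and 2.97-fold. The pair that fell were Dusp6 and Dusp5, phosphatases that switch off the kinase ERK. Dusp6 stood at 22.3 ± 2.50 in Ly6C+ and 71.4 ± 26.4 in Ly6C- cells (limma adjusted p = 0.00257) and Dusp5 at 8.43 ± 0.654 and 23.6 ± 9.18 (limma adjusted p = 0.0193). The call of Dusp5 ended without any 1 of the Ly6C+ libraries or without Ly6C- replicate 3 (adjusted p = 0.0501 to 0.0620).

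Kinases and factors upstream of AP-1 transcription, from the MAP kinases to the serum response factor SRF and ETS factors, were the next list. It does not separate activators from repressors. Of 19 tested from a list of 25, none rose, 2 fell and 17 did not pass, with a median of -0.14. Over all genes tested 9.41% rose and 7.66% fell, so the 2 that fell are near the general rate. Elk3, an ETS partner of SRF, was 1.90-fold higher in Ly6C- cells (122 ± 4.26 against 64.2 ± 8.14; limma adjusted p = 0.00494). Map2k1, which encodes the ERK kinase MEK1, was 1.89-fold higher there (limma adjusted p = 0.0315), a call that ended without Ly6C+ replicate 1 or 3 or without Ly6C- replicate 3 (adjusted p = 0.134, 0.0534 and 0.0749), without a filter (0.0860) or without the trend (0.0930). Srf and Egfr had log2 fold changes of -0.69 and 0.59 and did not pass (limma adjusted p = 0.0718 and 0.105), but both passed without Ly6C- replicate 3 (0.0106 and 0.0370). Srf also passed with libraries scaled to their totals (limma adjusted p = 0.0271).

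Other basic leucine zipper factors that can pair with AP-1 proteins were called about as often as genes in general. Of 21 tested from a list of 28, 2 rose, 1 fell and 18 did not pass, with a median of 0.07, against 9.41% higher and 7.66% lower over all genes tested. Jdp2, which encodes a JUN-binding repressor closely related to ATF3, rose 1.50-fold (180.0 ± 26.1 against 120.2 ± 9.77; limma adjusted p = 0.0494). Cebpd, a C/EBP factor of the acute-phase response, had means of 9.94 and 1.92, with 5 reads in all in Ly6C- libraries (limma adjusted p = 0.0369). Batf2, an interferon-induced partner of JUN proteins, had means of 7.05 in Ly6C+ and 18.5 in Ly6C- cells (limma adjusted p = 0.0459). Each of these calls ended without certain single libraries. The adjusted p then reached 0.170 for Jdp2, 0.182 for Cebpd and 0.156 for Batf2. Without Ly6C- replicate 3 all of them passed (limma adjusted p = 0.0448, 0.0103 and 0.0180), and Jdp2 also passed without Ly6C+ replicate 3 (0.0481). Over the alternatives of each gene, Jdp2 was not called in 10 of 19, among them libraries scaled to their totals (0.158), no trend (0.111) and DESeq2 (0.0690), Cebpd in 7 of 18 and Batf2 in 8 of 18. Mafk, another small MAF gene, had a log2 fold change of 0.81 and did not pass (limma adjusted p = 0.0649), but passed without Ly6C+ replicate 3 (0.0430).

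Genes described as AP-1 targets fell more often than they rose. Of 29 tested from a list of 30, 13 fell in Ly6C+ cells, where 7.66% of all genes tested fell, and 3 rose, near the general 9.41%. The other 13 did not pass, and the median of the list was -0.93. Mmp13, the collagenase 3 gene and a textbook AP-1 target, stood at 126, 121 and 510.0 in Ly6C- libraries against 6 reads in all in Ly6C+ libraries. Mmp9, which encodes a gelatinase, stood 12.8-fold higher in Ly6C- cells (497 ± 49.4 against 38.8 ± 9.71; limma adjusted p = 1.28e-06). Spp1, the osteopontin gene, was 26.9-fold and Tnc, the tenascin-C gene, 8.63-fold higher there. The targets that rose were the chemokine genes Cxcl1 (3.94-fold) and Ccl2 (4.03-fold) and the receptor kinase gene Axl (1.69-fold; limma adjusted p = 0.0228). The call of Axl ended without any 1 of Ly6C+ replicates 1 and 2 and Ly6C- replicates 1 and 2 (adjusted p = 0.0678 to 0.0916), without a filter (0.0627), with libraries scaled to their totals (0.0529) and without the trend (0.0840).

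**Figure D4:**
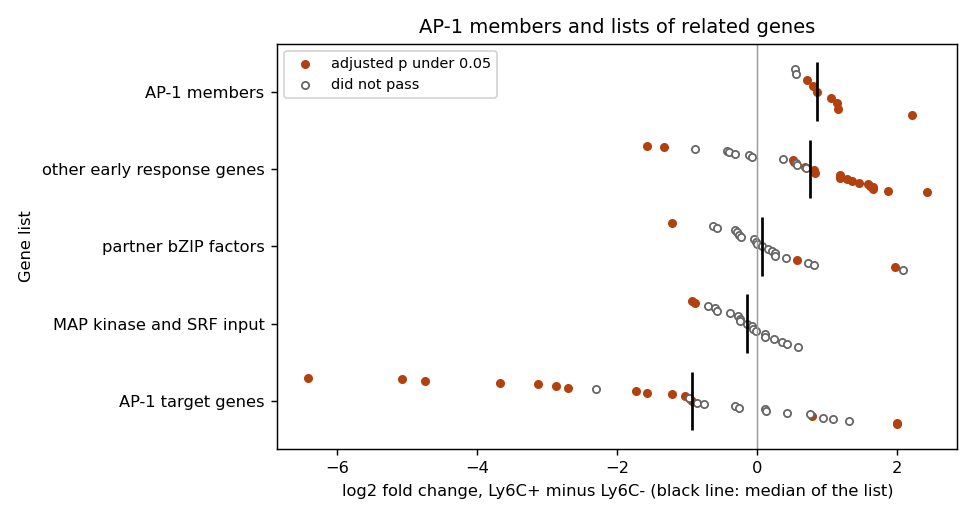
Log2 fold change, Ly6C+ minus Ly6C-, of each tested gene of the AP-1 members and of 4 lists of related genes; filled points passed at an adjusted p under 0.05 and black lines mark the medians. The medians are 0.85 for the members, 0.76 for other early response genes, 0.07 for partner factors, -0.14 for kinases and SRF inputs and -0.93 for AP-1 targets.

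How much each fold change depends on scaling was looked at gene by gene. Scaling each library to its own total shifted all genes by a median of -0.19 on the log2 scale and left the 7 calls in place, at 7.5% of all genes called higher. Quantile normalization, which forces the same distribution on each library, moved Fos from 1.05 to 0.53 and Jun from 0.71 to 0.20, while Maff was at 0.85 in both and Fosl1 went from 0.56 to 0.55.

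**Figure D5:**
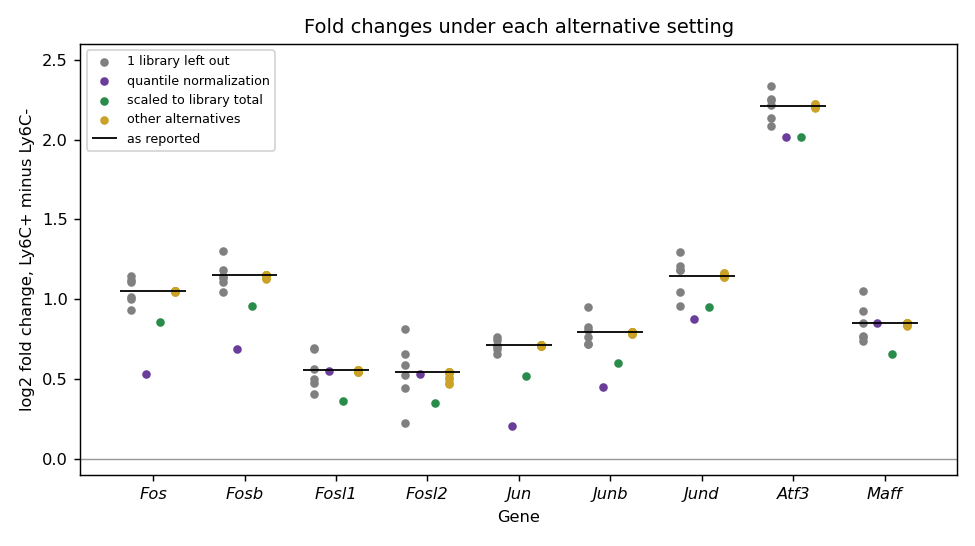
Log2 fold change of each member under each alternative setting, with a black line at the reported value; each point is 1 setting and points above 0 are higher in Ly6C+ cells. All points lie above 0, the lowest being Jun at 0.20 after quantile normalization and Fosl2 at 0.22 without Ly6C- replicate 1. Settings that alter the test alone lie on the black line by construction.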

How the data were processed

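The deposited table holds signal values, that is, normalised gene counts, which the authors made with a single size factor for each library. Per the submitters' processing notes, mm10 was the build, and HTSeq, STAR 2.4.2a and bcl2fastq were used. The labels describe 3' end mRNA libraries, in which reads mark transcript ends. A read need not stand for 1 separate transcript, as removal of duplicate reads was not checked. The size-factor tool, the annotation and the use of strand are not given in the sources used here. Each value was a whole multiple of 1 step per library (100% within a tolerance of 0.001 reads), so reads were recovered. Positions come from GENCODE M21.

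Values were taken to log2 after adding 1, which understates changes of low genes, and the 9646 genes with a mean of at least 5 were tested in R 4.3.3 by limma 3.58.1, its prior following a mean-variance trend, and Benjamini-Hochberg adjustment over all of them. Ratios were tested by exact permutation. Recovered reads were also tested with edgeR 4.0.16, which called 1721 genes against 1647 in limma, and DESeq2 1.42.0. The fits were tested on simulated data. The text names all members, the 4 genes of each list with the smallest p, called genes where a direction holds 5 or fewer, and the 3 nearest patterns of 4 members, of which only the nearest is given for Atf3 because an item there is not reported here; Prdx2 was added after its values were seen. The members and the gene lists were chosen with earlier results of these data known, so their counts are no independent support.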

Additional observations from a re-analysis of the deposited data

How the results depend on the processing

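The count of members called higher was 4 after quantile normalization and ran from 4 to 8 with 1 library left out; it was 6 or 7 in the remaining alternatives, and none was called lower. All genes called numbered 1121 to 1728 with 1 library left out and 959 at an adjusted p under 0.01. The kinase and SRF list, with 2 calls, had 1 without a filter, without the trend and at an adjusted p under 0.01, 4 with libraries scaled to their totals and with the replicate block in limma and in edgeR, and 1 to 3 with 1 library left out. The partner list, with 3 calls, had 1 without a filter, at a mean of at least 20 and in DESeq2, 0 at an adjusted p under 0.01, and 0 to 4 with 1 library left out.

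After quantile normalization the shifts of the log2 ratios to Fos, Jun and Junb turned to 0.021, 0.35 and 0.10 for Fosl1 and to 0.0014, 0.33 and 0.081 for Fosl2. With 1 library left out the Fosl2 shifts ran from -0.54 to 0.16 against Jun, -0.50 to 0.0893 against Junb and -0.54 to 0.075 against Maff, each above 0 without Ly6C- replicate 2. The cause was not tested.

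The groups share replicate numbers. Deviations from the group means correlated across genes at 0.052 to 0.167 between same-numbered libraries, which is not above 0.1 in every pair, so the numbers were not taken as pairs; as a hint from the data, each of the 6 libraries correlated best with its own number. With the replicate block 2088 genes passed in limma, 7 members among them, and Fosl1 (adjusted p = 0.0694) and Fosl2 (0.111) did not, while Srf, Egfr and Mafk passed (0.0226, 0.0284 and 0.0146). Fosl2 had the fewest reads of the members, 30 to 101 a library; whether depth or the spread between libraries limits its test was not tested.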
